A study of Mus musculus with 4 samples.

Results

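The exocrine pancreas enzymes described here are 10 genes, Pnlip, Pnliprp1, Clps, Cel, Cpa1, Cpb1, Prss2, Ctrb1, Cela1 and Cela2a, measured in mouse liver RNA. All non-control probes whose gene name is in this list were taken, which gave 11 of the 55681 probes on the array and 10 of its 36161 gene names. Clps has 2 probes and the other 9 genes have 1 each. The genes were chosen by their array signals, since several had been seen to read higher on MF than on the other 3 arrays, so their values are given as a description and no test was made on them.

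The data hold 1 array for each of 4 groups, namely M females (MF), M males (MM), C females (CF) and C males (CM). Microsomic (M) pups are those of low birth weight, below a low percentile for their sex, and the control (C) pups are littermates near the mean weight of the colony. The labels give embryonic day 20, C57BL/6J and whole liver for all groups, whereas the methods of the study describe newborn C57BL/6 N pups, and replicate experiments for each group where a single array is analysed here. No treatment or allele distinguishes the groups, and it is not stated if the RNA on an array came from 1 pup or was pooled. Total RNA was labelled with Cy3 and read in 1 colour on an Agilent SurePrint G3 Mouse GE 8x60K array. With a single array for each group, no spread between replicates and no p-value can be given, and the number of arrays limits the precision of every value. Levels are given as log2 processed signal less the 75th percentile of that array, so that 0 is a probe as bright as that percentile. Well above background is the call of the scanner software, and a dimmer probe has only a limit.

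The exocrine pancreas is built of acinar cells, which make digestive enzymes, store them in zymogen granules and secrete them through ducts into the gut. Most of the proteases leave the cell as inactive precursors and are activated in the intestine, where trypsin activates the others, whereas lipase needs its cofactor colipase and bile salts to act on fat droplets. The liver arises beside the ventral pancreas from foregut endoderm, and hepatocytes are not known as a source of most of these enzymes. Cela1, in contrast to most of the list, is known to be expressed in tissues other than the pancreas as well.

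The probes on which the results turn are 60 bases long. Their positions come from the annotation of the array, on mm9, and the exon or UTR they lie in was not analysed here. The following stretches are written 5′ to 3′ because the brightest differences came from probes of unlike composition. Capitals mark C and T windows, that is 5 consecutive bases of C and T with at least 3 C, since probes rich in such windows were read higher on some arrays.
Ctrb1, bases 31 to 60 of the probe at chr8:114210454-114210513, minus strand: cacggtccttTCCTCTTCCCTCTTCCTCCC
Clps, bases 1 to 30 of the brighter probe at chr17:28695162-28695221, minus strand: tcttTCTCCCTCTgtcccatctgagccagc
Clps, second probe at chr17:28695761-28695820, minus strand: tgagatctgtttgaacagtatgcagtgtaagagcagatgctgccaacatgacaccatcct
Prss2, probe at chr6:41473937-41473996, plus strand: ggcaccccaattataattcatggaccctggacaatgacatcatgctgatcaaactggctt
Pnliprp1, probe at chr19:58815028-58815621, plus strand: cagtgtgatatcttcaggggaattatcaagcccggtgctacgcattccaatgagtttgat
Cela1, probe at chr15:100515014-100515073, minus strand: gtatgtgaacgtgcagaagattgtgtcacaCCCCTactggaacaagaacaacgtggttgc
The Ctrb1 probe holds 11 of these windows, the brighter Clps probe 5, the Cela1 probe 1, and the other 3 probes 0. The positions of the Pnliprp1 probe cover 594 bases, more than its length.

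Hepatocyte genes, the markers of the labelled tissue, were read throughout, with 15 of 15 that had a probe well above background on all 4 arrays. Of the 10 pancreatic enzymes, 9 were well above background on at least 1 array and 6 on all 4, and no spot of theirs carried an outlier flag or was saturated. The share of spots well above background ran from 56.1% on CM to 65.3% on MM, and the lowest signal called well above background lay between log2 -5.98 on MF and -4.68 on CM, so that dim genes were seen less well on CM.

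Among the lipases, Pnlip, the triglyceride lipase of the adult pancreas, was not well above background on any array. Its signals were -6.76 in MF, -7.31 in MM, -6.38 in CF and -4.92 in CM, and no order can be read from them. Pnliprp1, a lipase-related protein without known triglyceride lipase activity, was well above background on all 4 arrays, at -0.32 in MF, -0.44 in MM, -1.66 in CF and -0.50 in CM. Its CF value stood alone, 2.24-fold below the lowest of the others, and the other 3 arrays lay close together. Cel, the bile salt-dependent lipase that is also a component of milk, was at -2.24 in MF, -2.12 in MM, -2.20 in CF and -3.74 in CM. Here CM stood alone, 2.84-fold below the lowest of the others.

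Clps encodes colipase, the cofactor that anchors lipase at the fat droplet. Its brighter probe read -0.46 in MF, -2.72 in MM, -2.21 in CF and -1.69 in CM, all well above background. MF was highest, by log2 1.22 or 2.34-fold over CM. The second Clps probe read -1.33 in MF, -4.66 in MM, -3.24 in CF and -4.84 in CM, where CM was not well above background. MF was again highest, by log2 1.91 or 3.75-fold over CF, so both probes of the gene put MF on top although the order of the other arrays differed between them.

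The carboxypeptidases trim amino acids from the C-terminal end of peptides. Cpa1, which prefers aromatic and aliphatic ends, was at -1.96 in MF, -3.12 in MM, -2.65 in CF and -1.98 in CM. MF and CM were nearly equal and both lay above MM and CF. Cpb1, which prefers basic ends, was at -3.44 in MF, -5.11 in MM, -3.78 in CF and -4.29 in CM, where CM was not well above background. MF was the highest and MM the lowest of the 3 arrays that measured it.

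Among the serine proteases, Ctrb1, a chymotrypsinogen, differed most between the arrays of the 6 genes measured on all of them. It was at 0.75 in MF, -1.78 in MM, -2.08 in CF and -1.04 in CM. MF was above each of the other 3, by log2 1.78 or 3.44-fold over CM. In the deposited units the signal of the Ctrb1 probe was 1497 in MF, 269 in MM, 160 in CF and 306 in CM. Prss2, a trypsinogen, was well above background in MF at -3.80 and in MM at -5.07, and not in CF at -5.05 or CM at -4.03. The elastase Cela1 was bright on every array, at 1.38 in MF, 0.84 in MM, 1.32 in CF and 1.56 in CM, and its whole range was log2 0.72. Cela2a, a second elastase, was at -4.38 in MF, -5.08 in MM, -4.76 in CF and -3.73 in CM, with CF not well above background. CM was the highest there, 1.57-fold over MF.

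**Figure D1:**
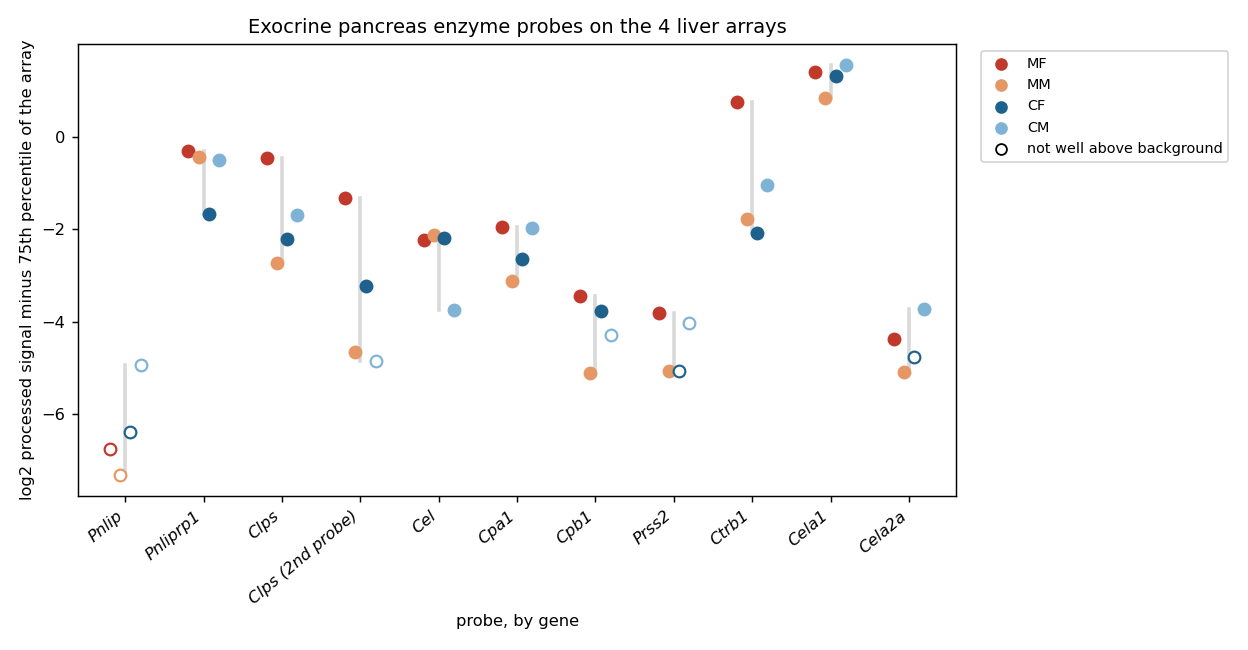
Levels of the 11 probes of the exocrine pancreas enzymes on the 4 arrays, as log2 processed signal less the array's 75th percentile (vertical axis) for each probe (horizontal axis). Colours mark the arrays, open circles mark signals not well above background, and grey lines span the arrays; MF is the highest point for Ctrb1 and for both Clps probes, CF the lowest for Pnliprp1, CM the lowest for Cel, and Pnlip is open on all arrays.

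Each array was then set against the other 3. A gene was counted when it exceeded the highest of the others by more than 1.5-fold. On MF this held for 2 of the 9 enzymes well above background somewhere, Ctrb1 and Clps, beside 7.64% of all genes so seen. On CM it held for 1, Cela2a, beside 13.1%, and on MM and CF for 0, beside 5.11% and 3.87%. MF had the highest signal for 6 of the 9 enzymes seen on at least 1 array and MM the lowest for 6, Prss2 among them, for which CF was not well above background and nearly equal. MM was also lowest for 12 of 15 hepatocyte genes and 8 of 10 erythroid genes, and MF highest for 7 and 2 of them. The shares over all genes were not computed for these counts. In the other direction CF was over 1.5-fold below the lowest of the others for 1 enzyme, Pnliprp1, beside 3.96% of all genes, and CM for 1, Cel, beside 5.57%, while MF and MM were so for 0, beside 6.28% and 2.98%. The count on CM went to 0 under 8 of the 12 alternative settings, whereas Ctrb1 and Clps exceeded the other arrays on MF under every setting, by log2 1.78 to 2.29 and 1.22 to 2.08.

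The comparison of microsomic with control females asks which genes go with low birth weight in that sex. In MF vs CF, 5 of the 9 measured enzymes were over 1.5-fold higher and 0 lower, beside 19.9% of all genes higher and 21% lower. The higher ones were Ctrb1 by 7.07-fold, Clps by 3.36-fold, Pnliprp1 by 2.54-fold, Prss2 by at least 2.38-fold and Cpa1 by 1.62-fold. The median over the 9 was log2 0.69, and over all genes -0.06. Cel and Cela1 lay within log2 0.07 of equality, Cpb1 was 1.26-fold higher and Cela2a at least log2 0.38 higher.

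In MM vs CM, the same comparison in males, 1 of the 7 measured enzymes was over 1.5-fold higher and 5 were lower. Over all genes well above background on MM or CM the shares were 17.7% and 23.1%. That base includes genes whose difference could not be taken, such as Cpb1 and Prss2, which are not among the 7. Cel was 3.08-fold higher in MM. Cela2a was 2.55-fold lower, Cpa1 2.20-fold, Clps 2.05-fold, Ctrb1 1.68-fold and Cela1 1.65-fold. Pnliprp1 was nearly equal, at log2 0.06. The median of the 7 was -0.75 and that of all genes -0.01, and Cpb1, Prss2 and Pnlip could not be compared. The split depended on the scaling, with 2 higher and 2 lower after normexp background correction and quantile normalization, and 2 higher and 1 lower on the deposited signals without scaling. For Clps the second probe did not repeat the difference, being at least log2 0.02 higher in MM. Hepatocyte genes also lay lower on MM than on CM, with 7 of 15 over 1.5-fold lower, 1 higher and a median of log2 -0.57, and their part in the male differences was not tested.

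Clps, Cpa1 and Ctrb1 were over 1.5-fold higher in MF than CF and over 1.5-fold lower in MM than CM, 3 of the 7 enzymes measured in both sexes. This pattern held for 6.11% of all genes measured in both. The opposite pattern was seen for 0 of the enzymes. The male side of the pattern depended on the processing for Ctrb1 and Clps. In MM vs CM Ctrb1 was at log2 -0.51 with median centring, -0.43 with the GC trend removed, -0.20 with the window trend removed, -0.19 without scaling and -0.00 with normexp, all within 1.5-fold. The median of all genes in this pair moved too. It came to 0.21 with median centring, 0.24 with the GC, position or window trend removed, 0.52 without scaling and 0.05 with normexp. Clps was at -0.47 without scaling, -0.43 as the mean of its probes, -0.37 with the position trend removed and -0.13 with normexp. Cpa1 fell just short of 1.5-fold in males without scaling, at -0.58, and in females with normexp, at 0.41. The spots around the brighter Clps spot had a median of log2 0.71 on CM and -0.24 on MM over the mean of the other arrays, and their part in its male difference was not tested. With 1 array a group the difference between the sexes could not be tested.

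**Figure D2:**
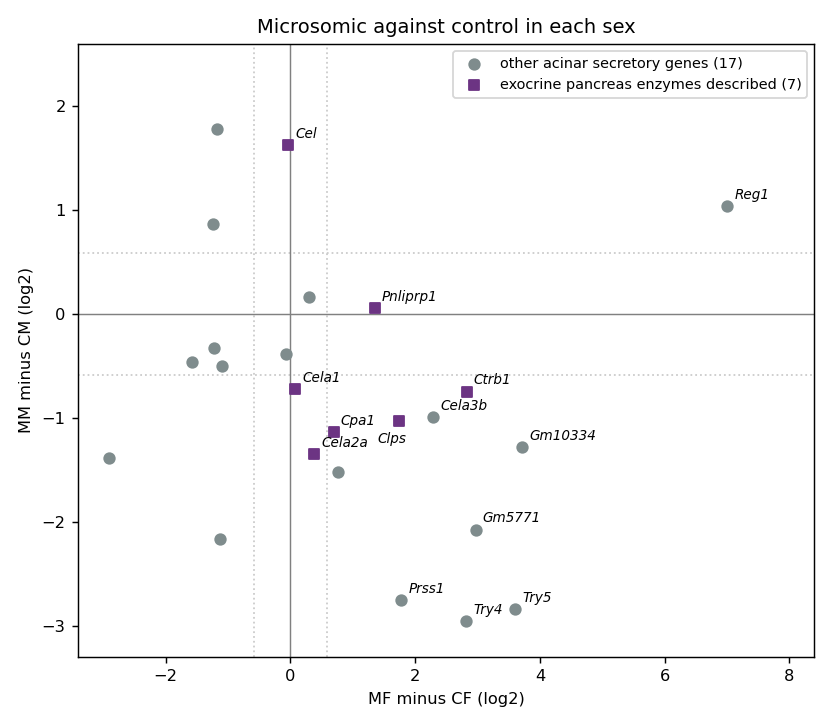
Difference of microsomic against control as log2, in females (horizontal axis, MF minus CF) and in males (vertical axis, MM minus CM), for the 7 exocrine pancreas enzymes (squares) and 17 other acinar secretory genes (circles) measured in both sexes; dotted lines mark 1.5-fold, and a gene not well above background on one array of a pair is plotted at its lower bound. Ctrb1, Clps and Cpa1 lie to the right of the female line and below the male line, as do 7 other acinar genes, Try4, Try5, Prss1, Gm5771, Gm10334, Cela3b and Spink3 (not labelled, at 0.75 and -1.52). The reverse holds for 2 other acinar genes, not labelled, Amy2a5 by its brighter probe (-1.24 and 0.87) and Ctrl (-1.17 and 1.79).

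Between the sexes, CM vs CF had 4 of 8 measured enzymes over 1.5-fold higher and 1 lower, beside 26.6% and 19.7% of all genes. Pnliprp1 was 2.24-fold higher in CM, Ctrb1 2.06-fold, Cela2a at least 2.04-fold and Cpa1 1.59-fold, while Cel was 2.92-fold lower. This split depended on the scaling too, with 2 higher and 2 lower after quantile normalization with or without normexp, and 3 higher and 2 lower with centring on the median or without scaling. In MM vs MF, 0 of 9 enzymes were over 1.5-fold higher and 6 lower, beside 28.9% and 20.5% of all genes, with a median of log2 -1.16 against 0.12 for all genes. The lower ones were Ctrb1 by 5.77-fold, Clps by 4.78-fold, Cpb1 by 3.18-fold, Prss2 by 2.41-fold, Cpa1 by 2.24-fold and Cela2a by 1.62-fold. Hepatocyte genes read lower on MM in this pair too, with 6 of 15 over 1.5-fold lower, 0 higher and a median of -0.57, as did erythroid genes, with 4 of 10 lower and 0 higher, and their part was not tested. The comparisons share arrays, MF in this one and in MF vs CF, for instance, so they are not separate evidence.

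The error of a single spot can be judged from probes printed in 10 spots on each array. Their median SD between spots was log2 0.16 to 0.45 at levels above -4 and 0.58 to 0.70 below it, which covers the scan and the position and says nothing of the spread between pups. Against the SD of a difference of spots at their levels, the MF vs CF difference of Ctrb1 was 7.28 SD, that of Clps 4.30, Pnliprp1 3.77, Prss2 1.79 and Cpa1 1.71. In MM vs CM the difference of Cel was 3.11 SD, of Cpa1 3.04, Clps 2.77, Cela1 2.38, Ctrb1 2.19 and Cela2a 1.83. The female differences of Prss2 and Cpa1 and the male difference of Cela2a were thus under 2 SD of repeated spots.

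Composition and position on the array moved with some of these values. Probes with 10 or more C and T windows, such as that of Ctrb1, were over 1.5-fold above the other arrays in 26.5% of 136 cases on MF and 28.7% on CM, but in 0.735% on MM and 1.47% on CF. For probes with under 4 windows the shares were 12.4% on CM, 6.30% on MF, 5.87% on MM and 4.0% on CF. Over 126 probes with 10 or more windows that were well above background on all arrays, the median difference was log2 0.21 in MF vs CF and -0.88 in MM vs CM. The Ctrb1 probe itself differed by 2.82 in MF vs CF and by -0.75 in MM vs CM, and the part of probe composition in these differences was not tested. With the trend of these windows removed, Ctrb1 in MM vs CM came to -0.20 and its excess on MF to 1.94. That setting also shifted whole arrays. The median of all genes went from log2 -0.01 to 0.24 in MM vs CM, and from 0.03 to -0.17 in CM vs CF. The change of Ctrb1 is thus not that of composition alone. The brighter Clps probe, with 5 windows, exceeded the highest of the other arrays on MF by log2 1.22, and the second, with 0, by 1.91. Being of another gene, they cannot show what composition adds to the values of the Ctrb1 probe. The spots around that of Ctrb1 had a median of log2 0.16 on MF over the mean of the other arrays, those around the brighter Clps spot -0.37 and those around the second -0.22. Around the Cela2a spot the surroundings were at 0.67 on CM over the mean of the other arrays. The gene itself exceeded the highest of the others there by 0.65, which is a stricter measure, so these values are not directly comparable.

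**Figure D3:**
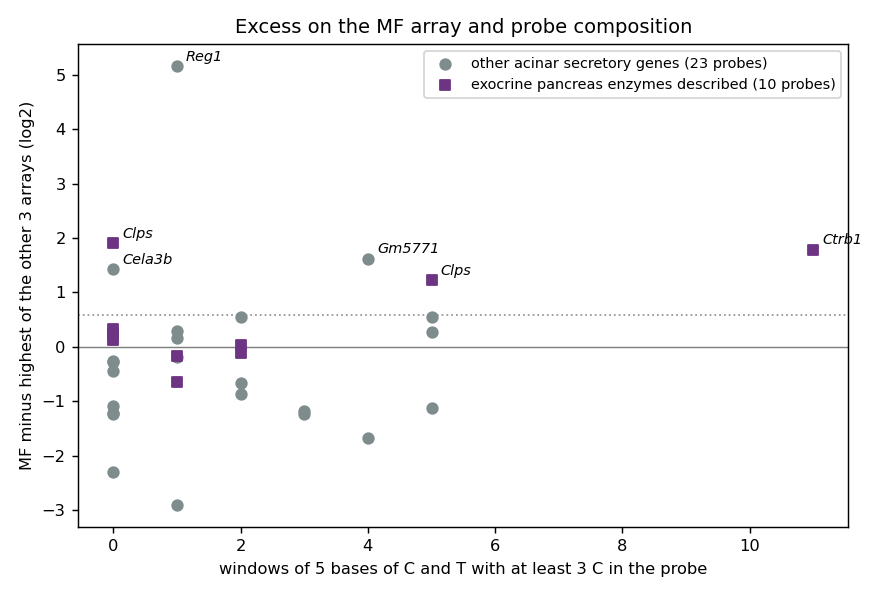
Excess of the MF array over the highest of the other 3 arrays as log2 (vertical axis) against the number of C and T windows in the probe (horizontal axis), for probes of the exocrine pancreas enzymes (squares) and of other acinar secretory genes (circles) with a value; the dotted line is 1.5-fold. Ctrb1 lies at 11 windows, the Clps probes at 5 and 0, and Reg1, with 1 window, has the largest excess, 5.16.

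Other secretory genes of the acinar cell were taken from knowledge of the cell type and compared in the same way. Of 41 listed names 30 had a probe, 22 were well above background on at least 1 array, 8 on all 4 and 8 on none. Of the 22, those over 1.5-fold above the other arrays were 3 on MF, 2 on CF, 2 on CM and 1 on MM. Over all genes well above background somewhere the shares were 7.64%, 3.87%, 13.1% and 5.11%, in that order. The count on MF ran from 0, where all arrays had to be well above background, to 7, with median centring, no scaling or the GC trend removed. Reg1, a secreted lectin-like protein of acinar cells that is also made in the gut, was at 1.52 in MF and -3.64 in MM and was not well above background in CF or CM, an excess on MF of log2 5.16. The trypsinogen Gm5771 exceeded the others on MF by 1.62 and the elastase Cela3b by 1.42. Next came the trypsinogens Try5 by 0.56 and Gm10334 by 0.55, and the kallikrein Klk1 by 0.30. For 12 of the 20 genes with a value, MF was at or below the highest of the others, among them Amy2a5, Ctrc, Ctrl, Pla2g1b, Prss1, Reg3b, Reg3d, Rnase1, Serpini2, Sycn and Zg16. The pancreatic amylase probe Amy2a5 was bright throughout, at 3.09 in MF, 5.40 in MM, 4.33 in CF and 4.53 in CM, and MF read 2.35-fold below CF. A second Amy2a5 probe, also bright, read 1.83-fold higher in MF than CF, at 3.64 and 2.76. The amylase genes are near-identical copies, of which the liver uses some, and the probes were not compared with them.

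Several trypsinogens were highest on the same arrays. Of 7 trypsinogen genes listed beside Prss2, 5 were over 1.5-fold higher on both MF and CM than on both MM and CF, beside 2.23% of all genes. The exceptions were 2210010C04Rik, not well above background on any array, and 1810009J06Rik, well above background on CF alone, and Prss2 itself was not called. The 5 were chosen for description after their values were seen. Try5 was at -1.88 in MF and -2.43 in CM and was not well above background in MM or CF, and Try4 was at -2.56 in MF and -2.83 in CM and likewise dim in the other arrays. Prss1 was at -3.71 in MF and -2.47 in CM, Gm5771 at -2.13 and -3.75, and Gm10334 at -1.77 and -2.31. Of the 10 enzymes, 2 met the same criterion, Ctrb1 by 1.68-fold and Cpa1 by 1.59-fold. The probes are only partly separate, since those of Try4 and Try5 share a run of 31 bases, and the Prss2 probe shares a run of 14 bases with a Prss1 probe. The genes are close paralogs, so their values can contain signal of one another.

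The other acinar genes as a list showed 9 of 21 higher and 8 lower in MF vs CF, beside 19.9% and 21% of all genes, with a median of log2 0.30. In MM vs CM 3 of 18 were higher and 10 lower, beside 17.7% and 23.1%, with a median of -1.14, and hepatocyte genes also read lower there. Ctrc, well above background on MM and not on CM, gave no difference and is not among the 18. Of 8 transcription factors and receptors of the acinar cell, 6 were well above background on at least 1 array. Of these, 0 were over 1.5-fold above the others on MF, beside 7.64% of all genes so seen. On CM 2 were, Ptf1a and Rbpjl, beside 13.1%. Bhlha15, which drives the secretory machinery, was at -2.76 in MF, -3.69 in MM, -3.63 in CF and -2.78 in CM, with MF and CM above the other pair. Rbpjl, a subunit of the acinar complex PTF1, was well above background in MF at -4.79 and in CM at -3.72 only. Ptf1a, its other cell-specific subunit, was highest on CM at -4.03, and was at -5.41 in MF and -4.93 in CF. Nr5a2, a nuclear receptor that hepatocytes also use, had MF lowest, at -0.65 in MF, 0.41 in MM, 0.16 in CF and 0.23 in CM, and its second probe had MF lowest as well. Gata4 lay between 0.83 and 1.11 on all arrays, and Onecut1 was highest on CM, at -2.75. The last 2 are hepatic factors too.

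Genes of other organs moved on the same arrays. Of 21 intestine genes, 20 were well above background on at least 1 array. Of these, 15 were over 1.5-fold above the other arrays on MF and 2 on CM, with 0 on MM or CF. The shares of all genes so seen were 7.64% on MF, 13.1% on CM, 5.11% on MM and 3.87% on CF. The summed level of the list, on the linear scale in multiples of the 75th percentile, was 289.6 on MF and 134.8 to 149.7 on the others. Tff3, the brightest of the list on every array, weighs most in this sum and was 1.28-fold above the others on MF. Alpi, the intestinal alkaline phosphatase, was at least 75.5-fold higher on MF, and Lct, the lactase of the brush border, 72.6-fold. MF is thus the array on which both the intestine list and Ctrb1 and Clps stood highest, and the part of intestinal RNA in the pancreatic values was not tested. The summed level of the 10 enzymes themselves was 6.51 on MF and 5.0 on CM, and 3.40 on MM and 3.79 on CF. Cela1, also expressed outside the pancreas, was the brightest of the 10 on every array and weighs most in these sums. It was at log2 1.38 on MF, 1.56 on CM, 0.84 on MM and 1.32 on CF. In whole tissue, fewer cells of a type and less RNA per cell cannot be told apart.

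**Figure D4:**
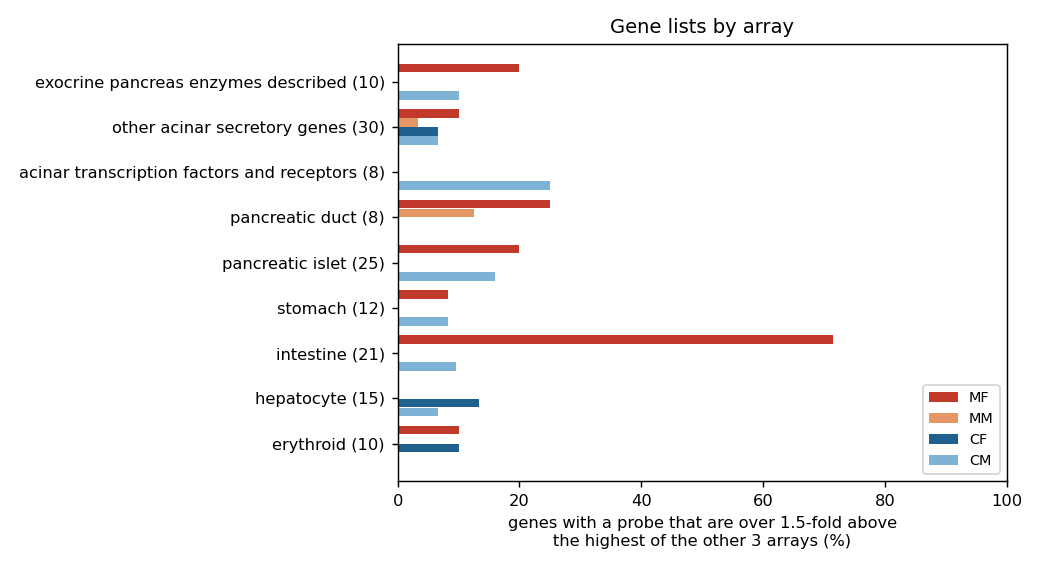
Share of the genes of each list that are over 1.5-fold above the highest of the other 3 arrays (horizontal axis, percent of genes with a probe, number in brackets), with a bar for each array; a missing bar is 0%. The intestine list stands out on MF at 71.4%, and the 10 exocrine pancreas enzymes reach 20% on MF and 10% on CM. These shares include genes well above background on no array, unlike the shares over all genes given in the text.

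Ranked by their excess on MF over the highest of the other 3 arrays, Ctrb1 and Clps were far from the top. The 10 genes with the largest excess were Prap1, 2210415F13Rik, Ms4a10, Alpi, Mamdc4, Lct, Rhox7, Otof, Mep1b and Eps8l3, from 97.9-fold for Prap1 to 44.8-fold for Eps8l3. For 2210415F13Rik, Ms4a10, Alpi and Mep1b the excess is a lower bound, so the order is not exact. Of the 10, 3 are in the intestine list, and the others were not assigned to an organ. Among 24717 genes with a value, Reg1 ranked 13, Ctrb1 437 and Clps 801.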

How the data were processed

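Liver RNA of 4 samples, 1 per group, was hybridized to 1-colour Agilent arrays, and the authors read the scans with Agilent Feature Extraction 10.7.3.1. The authors deposited processed signals, an intensity on a linear scale with a fitted background surface subtracted and a detrending factor divided out. That factor was deposited beside each spot as a ratio and was not used again. The deposited table of values equalled the processed signal in all 59305 non-control spots. Here log2 processed signals, less each array's 75th percentile, were compared. Spots flagged as outliers on at least 1 array, 1754 in all, were removed, spots of a probe averaged, and a gene taken by its brightest probe. For an array on which a probe was not well above background, its difference used the higher of its lowest well-above signal and the signal of the probe, and is a lower bound. No p-value was computed, since there is 1 array per group, and the count step was tested on simulated data. Neighbouring spots are those within 3 rows and columns, 44 to 48 for each enzyme. The members and gene lists were chosen with earlier results of these data known. Named genes are all 10 members, the 6 other acinar genes with the largest excess on the array where most members were highest and those at or below the other arrays, and the 10 genes of the whole array with the largest excess there. Some named genes are not reported here. Gene names and mm9 positions are those of the array annotation, and 10 of 10 members matched the RefSeq table of GRCm38.p6 by accession. Alternatives were quantile normalization, alone or after normexp (offset 50), centring on the median, no scaling, another or no filter on dim probes, the mean over probes, outlier spots kept, a 2-fold threshold, and removal of trends with probe GC content, position or C and T windows, the last chosen after seeing the data. Python 3.11.15, pandas 2.3.3, numpy 2.4.6, R 4.3.3 and limma 3.58.1 were used.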

Additional observations from a re-analysis of the deposited data

Results flagged for a closer look

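The direction of microsomic against control was opposite in the sexes for 3 of the enzymes. Ctrb1 differed by log2 2.82 in MF vs CF and by -0.75 in MM vs CM, Clps by 1.75 and -1.03, and Cpa1 by 0.69 and -1.14. With 1 array per group, the difference between the sexes was not tested. The male difference of Ctrb1 ran from log2 -0.98 with the position trend removed to -0.00 with normexp, that of Clps fell to -0.13 with normexp and that of Cpa1 to -0.58 without scaling. The second Clps probe differed by 1.91 in MF vs CF and by at least 0.02, in the other direction, in MM vs CM.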

How the results depend on the processing

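No paired analysis was possible because each group has 1 array. Differences of single enzymes in MF vs CF and MM vs CM were taken under the alternatives other than the 2-fold threshold. Of these 174, 149 kept their value within the spread of repeated spots, 25 moved and 0 that passed 1.5-fold turned sign. The 149 include settings that could not move a value. Keeping outlier spots or changing the dim filter left every value given unchanged, and the mean over probes could change only Clps. Of 144 counts under 12 alternatives, 114 stayed within 1.5 times. Enzymes over 1.5-fold above the others on MF were 4 without scaling in place of 2. On CM they were 0 in place of 1 with median centring, quantile normalization, no scaling, all arrays well above background, a 2-fold threshold, or the GC, position or window trend removed, and 2 without a filter on dim probes. MF vs CF had 3 in place of 5 with normexp, MM vs MF 3 in place of 6 with normexp, and MM vs CM 3 in place of 6 without scaling. Other acinar genes on MF, 3 as reported, were 7 with median centring, no scaling or the GC trend removed, 6 with quantile normalization, no dim filter or the window trend removed, 5 with the position trend removed, and 0 when all arrays had to be well above background. On MM, 1 became 0 with normexp or a 2-fold threshold. On CF, 2 became 1 with normexp, no scaling, the mean over probes or a 2-fold threshold. On CM, 2 became 4 without a dim filter, 0 with all arrays well above background and 1 with the mean over probes. Without scaling the median of all genes on all arrays lay at log2 0.32 in MF vs CF and 0.53 in MM vs CM. In MM vs CM this median lay at 0.21 with median centring, 0.25 with the GC or window trend removed and 0.23 with the position trend removed. The male difference of Ctrb1 was -0.00 with normexp and -0.20 with the window trend removed. Apart from settings that use fewer genes or another threshold, the cause was not tested. The call well above background limits Pnlip on every array, and Prss2, Cpb1, Cela2a and the second Clps probe on CF or CM.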

Other observations

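Genes of other pancreatic cells were read on the same arrays. Of 25 islet genes with a probe, 17 were well above background on at least 1 array. Of the 17, 5 were over 1.5-fold above the other arrays on MF and 4 on CM, and 0 on MM and CF. Over all genes well above background somewhere the shares were 7.64% on MF and 13.1% on CM. In MF vs CF 8 of 13 measured were higher and 2 lower, beside 19.9% and 21% of all genes, and in MM vs CM 0 of 12 were higher and 8 lower, beside 17.7% and 23.1%. Gcg in both pairs and Pdx1 in MM vs CM gave no difference and are left out, although well above background on 1 array of the pair. The shares over all genes keep such genes in their base. Ins2, an insulin gene, was at log2 -0.68 in MF, -2.45 in MM, -1.72 in CF and -1.30 in CM, and Sst, which encodes somatostatin, was at -3.12, -4.84, -4.92 and -3.36, with CF not well above background. Ins2 and Sst thus had MF and CM above MM and CF, although Ins2 was only 1.34-fold higher in CM than in CF. Both were chosen after their values were seen. Of the 17 islet genes, 2 had both MF and CM over 1.5-fold above MM and CF, beside 2.23% of all genes. Ins1 and Ghrl also had MF and CM on top. The probes of Sst, Ins1 and Ghrl hold 4 C and T windows each and that of Ins2 holds 3. The part of probe composition in these values was not tested. Gcg, Ppy and Pyy, hormones that islets share with the gut, were not well above background in CF. Gcg was so on MF and MM only, Pyy on MM and CM only, and Ppy on no array. Iapp was well above background on MF and CF only. Of 8 duct genes, 2 were above the others on MF, Krt19 by log2 0.67 and Cftr by 0.74, and 1 on MM, Sox9, by 1.78-fold. Of 12 stomach genes with a probe, 1 was so on MF and 1 on CM, and of 10 erythroid genes 1 on MF and 1 on CF, shares near those of all genes or resting on a single gene.

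Promoters, from 250 bases before to 50 after the start of the gene, were found for 9 of the 10 enzymes in the RefSeq table of GRCm38.p6. The acinar complex PTF1 binds an E-box beside a TC-box. Counting both strands, the E-box letters CACCTG were in 5 of the 9 (20.0% of 27025 promoters), CAGCTG in 3 (16.1%) and the TC-box letters TTTCCC in 6 (25.2%). These are matches of letters, not sites.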
